A study of Homo sapiens with 9 samples.

Results

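The genes described here are 53 DNA repair and checkpoint genes, grouped into 9 pathways from nucleotide excision repair to the signalling of DNA breaks, and followed in human embryonic stem cells under damage and under differentiation. Members were taken by name, and each was represented by the probe set, among those the platform annotation gives to that gene alone, with the highest mean over the 9 arrays. By that rule 47 of the 53 genes were measured, out of 19775 genes in all. ATRIP and PMS2 have probe sets only in common with a neighbouring or related gene and were left out, and BRCA2, RBBP8, FANCA and FANCD2 were not analysed here. The cells are WA09, an established human embryonic stem cell line with no genetic change named in the labels, and the 3 conditions have 3 arrays each. The untreated cells are pluripotent. The damaged cells were given DOX (doxorubicin, which traps topoisomerase II on DNA and breaks it) for 5 h, and no dose is named in the labels. The differentiating cells were given 1 µM retinoic acid (RA) for 2 days, for which the protocols name a medium without added FGF, so RA and the loss of that factor cannot be told apart.

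Values are normalised log2 intensities, so a difference of 1 is a factor of 2. Changes are given on this scale with limma's standard error (SE), and a gene is said to have risen or fallen where limma's p, adjusted by Benjamini-Hochberg over all 19775 genes, was under 0.05. Whether the replicates were grown as separate cultures is not stated, so the p-values reflect array-to-array spread, which may be technical. In such bulk samples, fewer cells of a type and less RNA per cell cannot be told apart. Replicate arrays had pairwise correlations of 0.996 to 0.998 over the genes, and the third untreated array carried the lowest limma weight, 0.512. The mean level of 8 measured pluripotency markers lay between 12.20 and 12.30 on the untreated arrays, between 12.02 and 12.14 on the DOX arrays and between 12.25 and 12.40 on the RA arrays.

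Cells mend DNA by pathways that divide the work by lesion. Nucleotide excision repair cuts out bulky, helix-distorting lesions, base excision repair replaces damaged bases, mismatch repair corrects copying errors, and breaks of both strands are either rejoined by end joining or copied from the sister chromatid by homologous recombination. Translesion polymerases copy past lesions that are still in place, the Fanconi anaemia proteins open crosslinks, and the kinases ATM and ATR with their effectors CHEK2 and CHEK1 hold the cell cycle while repair goes on. The transcription factor p53, which these kinases activate, is itself known to induce several excision repair and bypass genes, among them DDB2, XPC and POLH.

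The promoters of 3 genes that rose after DOX, DDB2, POLH and XPC, and of the checkpoint kinase gene CHEK2, which fell, are shown because these genes carry the opposing responses described below. Each is the 250 bases upstream of the RefSeq start in GRCh38.p14, on the gene's own strand, with capitals marking a CCAAT box (CCAAT or its complement) or an E2F site (TTTGGCGC, TTTCCCGC, TTTCGCGC or TTTGCCGC, on either strand). DDB2 lies on the plus strand with this stretch at chr11:47214204-47214453, POLH on the plus strand at chr6:43575935-43576184, XPC on the minus strand at chr3:14178602-14178851 and CHEK2 on the minus strand at chr22:28741821-28742070.
DDB2: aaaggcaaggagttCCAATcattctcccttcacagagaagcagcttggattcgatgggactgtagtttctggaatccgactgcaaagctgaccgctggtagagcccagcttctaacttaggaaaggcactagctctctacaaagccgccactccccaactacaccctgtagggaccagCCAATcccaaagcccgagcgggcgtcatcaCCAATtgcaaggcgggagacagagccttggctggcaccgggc
POLH: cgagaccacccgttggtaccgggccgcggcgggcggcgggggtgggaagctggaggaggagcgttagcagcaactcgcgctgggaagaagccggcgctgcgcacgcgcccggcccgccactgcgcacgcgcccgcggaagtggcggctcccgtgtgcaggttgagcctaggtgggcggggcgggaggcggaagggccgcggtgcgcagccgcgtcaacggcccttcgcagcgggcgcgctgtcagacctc
XPC: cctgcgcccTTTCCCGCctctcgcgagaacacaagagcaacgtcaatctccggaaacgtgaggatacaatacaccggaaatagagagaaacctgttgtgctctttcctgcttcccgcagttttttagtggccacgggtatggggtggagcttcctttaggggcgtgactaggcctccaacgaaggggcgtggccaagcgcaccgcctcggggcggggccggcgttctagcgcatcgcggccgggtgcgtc
CHEK2: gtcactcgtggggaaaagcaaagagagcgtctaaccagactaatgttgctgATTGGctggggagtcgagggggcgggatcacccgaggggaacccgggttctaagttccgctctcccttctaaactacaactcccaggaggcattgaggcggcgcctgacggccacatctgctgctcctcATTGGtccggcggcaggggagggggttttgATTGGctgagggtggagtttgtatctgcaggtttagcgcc

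DDB2, which rose, and CHEK2, which fell, each hold 3 CCAAT boxes, POLH holds none of the motifs, and XPC holds 1 E2F site at positions -241 to -234 from its start. RefSeq promoter windows (250 bases before to 50 after the start) were at hand for 42 of the 47 measured members, the others being WRN, FANCI, XRCC5, PRKDC and NBN. A CCAAT box occurred in 18 of the 42 windows (42.9%) and in 35.7% of 27305 promoter windows of the same length and 36.1% of those of genes tested here. An E2F site occurred in 5 of 42 (11.9%), in XPC, FANCC, MSH3, MSH6 and XRCC6, against 3.33% of all windows and 4.36% of those of 15384 genes tested here. The p53 consensus element, searched as its 10-base unit, occurred in 1 of 42 (2.38%, in BLM) against 6.54% of all windows and 5.95% of those of genes tested here, and 2 such units up to 13 bases apart in 0 of 42 against 0.0293%. These matches describe letters within one window per gene and are no evidence of binding.

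After 5 h of DOX the called repair genes went both ways. Of the 47 measured members 6 rose and 8 fell, 14 in all (29.8%), where 15.3% of all genes were called, 5.67% as higher and 9.6% as lower. Among genes above the median level, where 42 of the members lie, 24.6% of genes and 31.0% of members were called. There 8.05% of genes and 11.9% of members rose, and 16.6% of genes and 19.0% of members fell. POLH, at a mean of 5.926 over the 9 arrays where the median over genes was 5.956, is not in this subset. The median change of the members was -0.085, against -0.0047 over all genes and -0.069 over genes above the median level. Of the 14 measured genes of nucleotide excision repair and translesion synthesis 5 rose and 0 fell (0 also at an unadjusted p under 0.05 by limma), whereas of the 33 genes of the other 7 pathways 1 rose and 8 fell. No test of a difference between pathways was run, this grouping was made with the results known, and the other listed genes of the same pair of pathways, given below, went both ways. The rises reached 4.32-fold and the falls 1.49-fold, and only POLH and DDB2 moved by 2-fold or more. In the same arrays all 8 measured p53 targets of a marker list that includes CDKN1A and MDM2 rose, 7 of 12 genes of the G2 and M phases and 5 of 14 S phase genes fell (1 S phase gene, TYMS, rose), and 4 of 12 fibroblast and stromal genes rose. The mean level of the G2 and M phase genes was 9.86 to 9.90 on untreated, 9.43 to 9.498 on DOX and 9.84 to 9.97 on RA arrays, and that of the S phase genes 9.48 to 9.499, 9.29 to 9.38 and 9.40 to 9.46. For the fibroblast list the ranges were 6.04 to 6.16, 6.51 to 6.57 and 6.02 to 6.13. The 4 genes of this list that rose were COL1A1, THY1, TWIST1 and ACTA2. By group mean 3 of the 12 lay below the median probe set (4.62 to 4.68) on untreated, 2 on DOX and 4 on RA arrays. LUM, which marks fibroblasts, was at 3.06 to 3.25 on every array, while COL1A1 had means of 10.37, 11.45 and 11.37. All 8 measured pluripotency markers had negative changes after DOX, and 1 of them, SOX2, was called (-0.46, adjusted p = 0.0024 by limma). The part of these shifts in the results on repair genes was not tested.

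**Figure D1:**
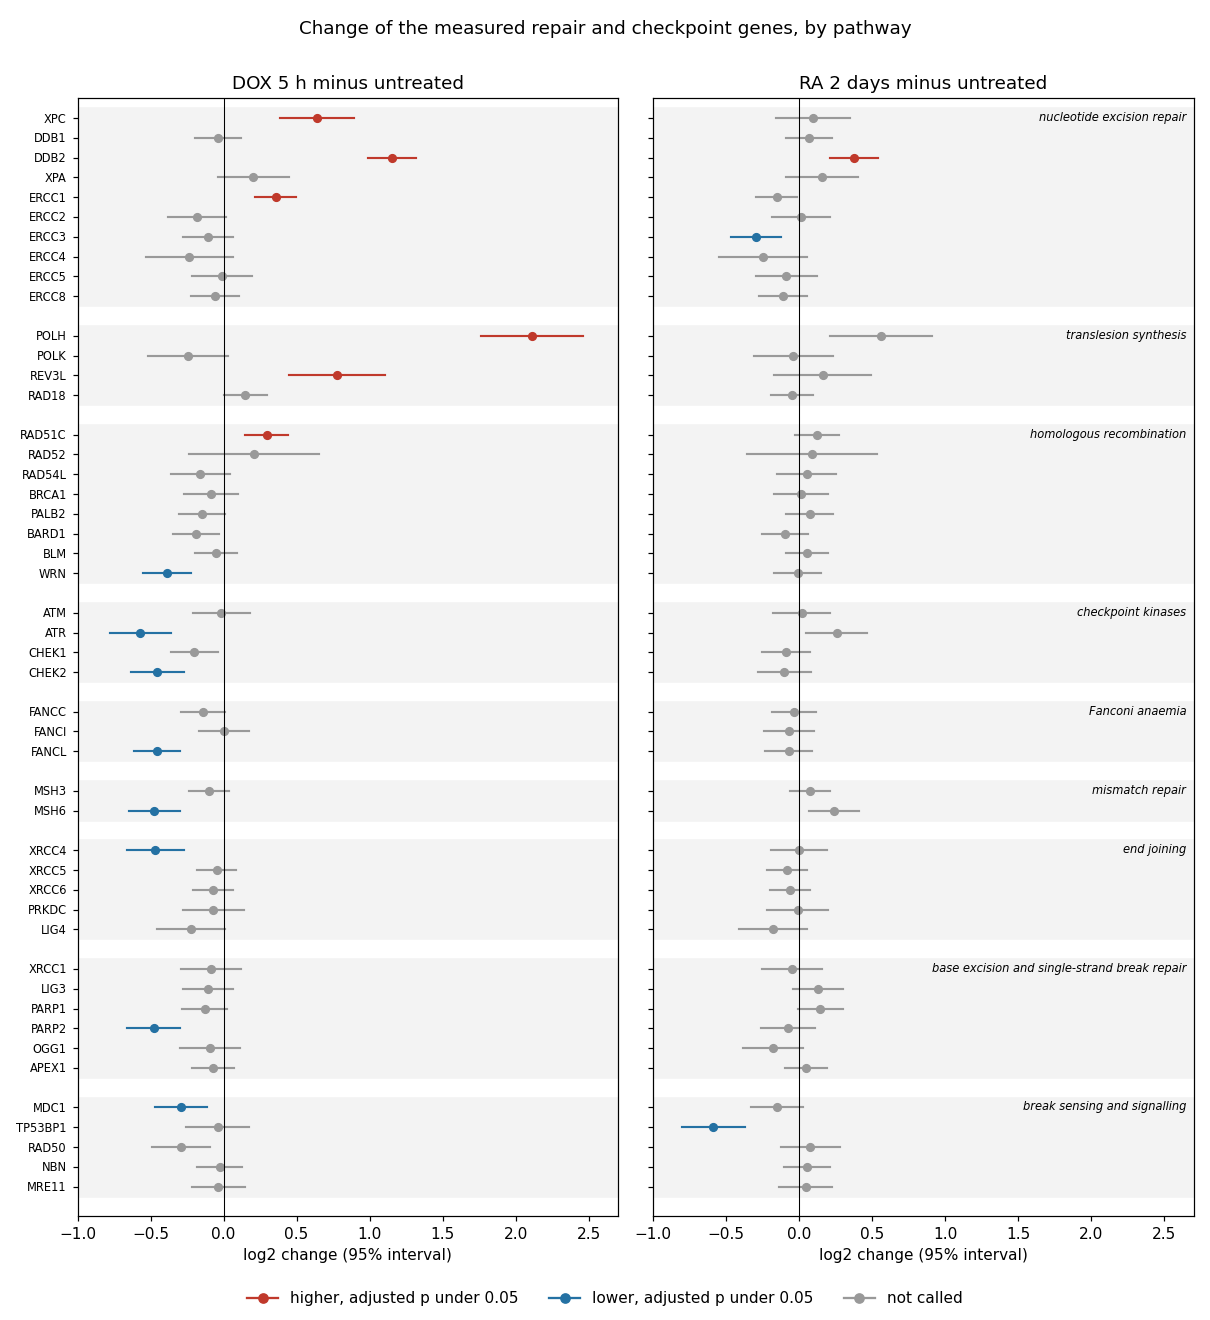
Log2 change of each of the 47 measured genes (x axis) after DOX (left) and after RA (right), with limma's 95% interval as a line and the genes grouped by pathway in grey bands. Red points rose and blue points fell at an adjusted p under 0.05; on the left the red points sit mainly in the upper 2 bands and the blue ones in the lower 7, and on the right 3 points are coloured.

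In nucleotide excision repair 3 of 10 measured genes rose, of which DDB2 and XPC act in damage recognition and ERCC1 in incision. DDB2, the lesion-binding subunit of the UV-DDB complex, read 8.24, 8.40 and 8.26 on the untreated arrays, 9.47, 9.46 and 9.43 on the DOX arrays and 8.76, 8.69 and 8.58 on the RA arrays. The 3 groups did not overlap, with DOX highest and untreated lowest. DDB2 rose 2.22-fold after DOX (1.15 ± 0.074, SE, adjusted p = 2.5e-06 by limma, 3 arrays each), and no alternative setting moved this below 1.12. XPC, which senses distorted DNA throughout the genome, read 8.17, 8.26 and 8.06 untreated, 9.01, 8.75 and 8.64 after DOX and 8.43, 8.28 and 8.07 after RA. Only the DOX arrays stood apart, and XPC rose 1.56-fold (0.64 ± 0.11, adjusted p = 0.0034 by limma).

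ERCC1, a subunit of the nuclease that cuts on the 5′ side of the lesion, rose 1.28-fold (0.36 ± 0.064, adjusted p = 0.0036 by limma). Its arrays read 8.63, 8.74 and 8.61 untreated, 9.03, 8.97 and 9.04 after DOX and 8.51, 8.51 and 8.50 after RA, so that the RA arrays were the lowest of the 3 groups. The call on ERCC1 came from 1 of its 3 probe sets, all of which had positive changes, and it was lost without x_at and s_at probe sets, designs that may bind several transcripts (0.20, adjusted p = 0.29 by limma). The partner nuclease gene ERCC4 was at -0.23 ± 0.14 and was not called. Neither DDB1, the partner of DDB2 (-0.039), nor XPA (0.20), nor the helicase and nuclease genes ERCC2 (-0.18), ERCC3 (-0.11) and ERCC5 (-0.011), nor ERCC8, which acts in transcription-coupled repair (-0.056), was called after DOX. Their adjusted p-values were 0.23 or more by limma, with 95% intervals from -0.53 to 0.45 at the widest over the 7 uncalled genes.

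POLH encodes polymerase eta, which copies accurately past ultraviolet lesions, and it had the highest change among the members. It read 5.01, 5.43 and 4.66 untreated, 7.15, 7.18 and 7.11 after DOX, and 5.44, 5.63 and 5.73 after RA. The DOX arrays lay far above both other groups, and the untreated arrays spread over 0.39 (SD) where the DOX arrays spread over 0.033. POLH rose 4.32-fold (2.11 ± 0.16, adjusted p = 7.9e-06 by limma), from an untreated mean of 5.03. All 6 of its probe sets had positive changes after DOX and 4 were called, and the mean of the 6 changed by 0.98 (adjusted p = 1.4e-05 by limma). REV3L, the catalytic subunit of polymerase zeta, which extends from lesions, read 7.13, 7.08 and 6.44 untreated and 7.62, 7.66 and 7.70 after DOX. Its RA arrays read 7.095, 6.996 and 7.04. REV3L rose 1.71-fold after DOX (0.78 ± 0.15, adjusted p = 0.0052 by limma), with the third untreated array the lowest, and without that array the change was 0.56. The call on REV3L was lost without x_at and s_at probe sets (0.37, adjusted p = 0.073 by limma). POLK, a further bypass polymerase (-0.24, 95% interval -0.51 to 0.028), and RAD18, the ligase that marks PCNA at stalled forks (0.15, interval 0.0039 to 0.30, adjusted p = 0.17 by limma), were not called.

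**Figure D2:**
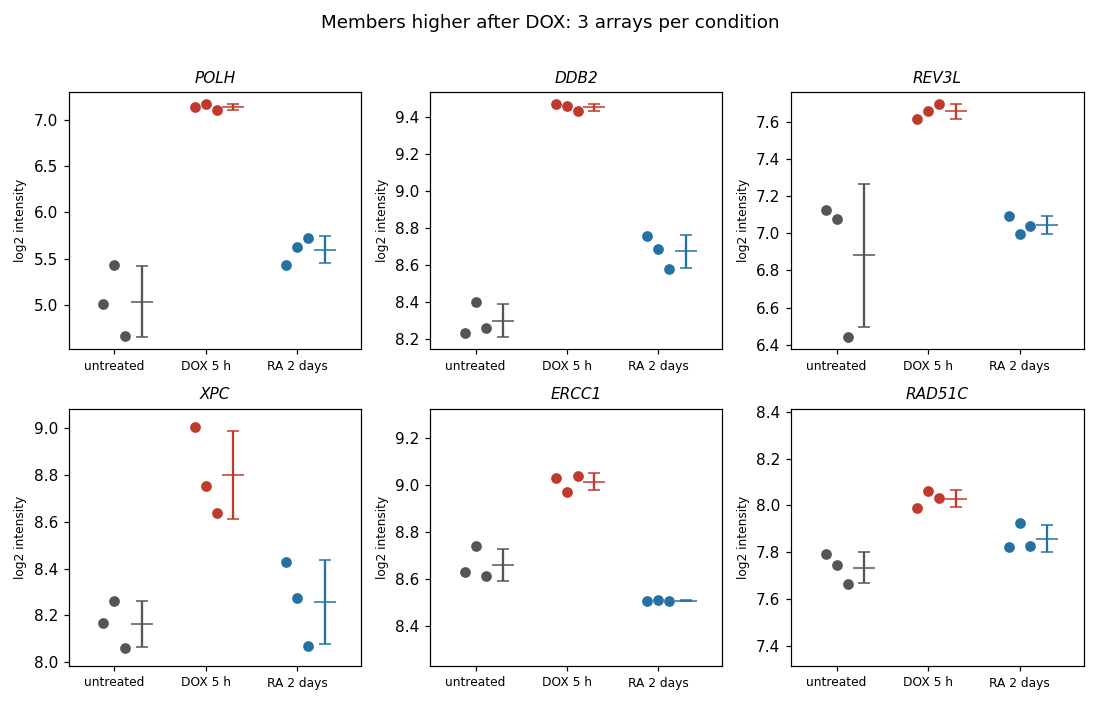
Log2 intensity (y axis) of the 6 genes that rose after DOX, 1 point per array and 3 arrays per condition, with the mean and SD beside the points; each panel has its own axis. The red DOX points of DDB2, POLH, XPC, REV3L, ERCC1 and RAD51C lie above all grey untreated points, and the blue RA points of all 6 lie below the red ones, with those of DDB2, POLH and RAD51C between the 2 other groups.

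Homologous recombination gave 1 rise and 1 fall among 8 measured genes. RAD51C, which helps prepare the broken end for strand exchange, read 7.79, 7.75 and 7.66 untreated, 7.99, 8.06 and 8.03 after DOX and 7.82, 7.93 and 7.83 after RA. It rose 1.23-fold after DOX (0.29 ± 0.067, adjusted p = 0.013 by limma), and both of its probe sets, each an s_at design, were called. WRN, a helicase and exonuclease lost in Werner syndrome, read 7.78, 7.82 and 7.70 untreated, 7.31, 7.499 and 7.33 after DOX and 7.74, 7.75 and 7.79 after RA. It fell 1.31-fold (-0.39 ± 0.073, adjusted p = 0.0046 by limma), on its 1 probe set. BRCA1, BARD1 and PALB2 were not called. BRCA1, the ligase that promotes recombination, read 8.43, 8.47 and 8.43 untreated, 8.35, 8.38 and 8.33 after DOX and 8.32, 8.40 and 8.64 after RA, and its change after DOX was -0.084 (95% interval -0.27 to 0.10, adjusted p = 0.58 by limma). Its partner BARD1 was at -0.19, PALB2, which bridges BRCA1 and BRCA2, at -0.15, the translocase gene RAD54L at -0.16, the helicase gene BLM at -0.052 and the annealing factor gene RAD52 at 0.21, and RAD54L, BLM and RAD52 were not called either.

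Among the checkpoint kinases the ATR gene and CHEK2 fell while ATM and CHEK1 were not called. ATR, the kinase that answers stalled forks, read 8.28, 8.35 and 8.22 untreated, 7.79, 7.74 and 7.61 after DOX and 8.39, 8.74 and 8.50 after RA. The 3 groups did not overlap, with DOX lowest and RA highest. ATR fell 1.49-fold after DOX (-0.57 ± 0.095, adjusted p = 0.0022 by limma), and the mean of its 3 probe sets changed by -0.28 (adjusted p = 0.013 by limma). CHEK2, the effector kinase of ATM, read 8.95, 9.06 and 8.86 untreated, 8.57, 8.53 and 8.41 after DOX and 8.85, 8.94 and 8.78 after RA. Its DOX arrays lay below all others, and it fell 1.37-fold (-0.45 ± 0.081, adjusted p = 0.0033 by limma). This rests on 1 probe set, an s_at design, so the call could not be recomputed without such probe sets. ATM, the kinase that answers breaks, read 7.90, 7.91 and 7.76 untreated, 7.84, 8.001 and 7.68 after DOX and 7.83, 7.92 and 7.88 after RA. Its groups overlapped throughout, and the change after DOX was -0.017 (95% interval -0.21 to 0.18, adjusted p = 0.93 by limma). CHEK1, the effector kinase of ATR, read 8.97, 8.86 and 8.87 untreated, 8.60, 8.72 and 8.77 after DOX and 8.73, 8.858 and 8.84 after RA. Neither treated group overlapped the untreated arrays, yet the change after DOX of -0.20 ± 0.0735 did not pass (adjusted p = 0.099 by limma).

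In the remaining pathways the called genes all fell, each by less than 2-fold. FANCL, the ligase subunit that ubiquitinates the FANCI and FANCD2 pair, read 9.96, 9.91 and 9.89 untreated and 9.52, 9.49 and 9.37 after DOX. Its RA arrays read 9.80, 9.80 and 9.94. FANCL fell 1.37-fold after DOX (-0.46 ± 0.072, adjusted p = 0.0016 by limma), while FANCI (0.0056) and the core complex gene FANCC (-0.14) were not called. MSH6, which recognises base mismatches, read 11.43, 11.45 and 11.19 untreated, 10.88 on each of the DOX arrays (SD 0.0016) and 11.59, 11.64 and 11.55 after RA. The DOX arrays were lowest and the RA arrays highest, with no overlap. MSH6 fell 1.39-fold after DOX (-0.47 ± 0.078, adjusted p = 0.0021 by limma). Both of its bright probe sets showed the fall (-0.47 and -0.42) and the other two, at mean levels of 3.08 and 3.19, did not, so that the mean of all 4 was at -0.21 (adjusted p = 0.024 by limma). MSH3, which recognises larger loops, was at -0.099 and was not called.

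Of the end joining genes XRCC4, the scaffold of the ligase, was the one called. It read 7.12, 7.19 and 7.06 untreated, 6.65, 6.77 and 6.55 after DOX and 6.996, 7.11 and 7.26 after RA, and fell 1.38-fold (-0.47 ± 0.087, adjusted p = 0.0044 by limma). This rests on an x_at probe set, a design that may also bind related transcripts, and 1 of its 4 probe sets was called. Without x_at and s_at probe sets XRCC4 was represented by a dim one, at 0.048 (adjusted p = 0.78 by limma), and the mean of the 4 was at -0.24. The Ku subunit genes XRCC5 (-0.048) and XRCC6 (-0.073) and PRKDC, the kinase that Ku recruits (-0.070), were not called, with intervals inside -0.28 to 0.14. LIG4, the ligase itself (-0.23), was the 1 member with a mean below the median probe set and may be at background.

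PARP2, a sensor of strand breaks, read 8.76, 8.90 and 8.68 untreated, 8.38, 8.31 and 8.21 after DOX and 8.64, 8.80 and 8.68 after RA. It fell 1.39-fold (-0.48 ± 0.083, adjusted p = 0.0027 by limma), and all 3 of its probe sets were called lower. PARP2 has only x_at and s_at probe sets, so its call could not be recomputed without such designs. Its larger relative PARP1 was at -0.13 and was not called, as were the single-strand break scaffold XRCC1 (-0.085), the ligase gene LIG3 (-0.11), the 8-oxoguanine glycosylase gene OGG1 (-0.093) and the abasic endonuclease gene APEX1 (-0.073). Among the break sensors MDC1, the adaptor that binds phosphorylated H2AX, read 8.99, 9.13 and 8.90 untreated, 8.76, 8.61 and 8.78 after DOX and 8.82, 8.89 and 8.84 after RA. It fell 1.22-fold (-0.29 ± 0.080, adjusted p = 0.032 by limma), but lost the call without the first untreated array (-0.30, adjusted p = 0.081), the second (-0.23, adjusted p = 0.13) or the second DOX array (-0.24, adjusted p = 0.11), and with the replicate number as a block (adjusted p = 0.054), with further quantile normalization (adjusted p = 0.058) or with only the 2 groups compared (adjusted p = 0.070). The genes of the MRN complex, which holds broken ends, were not called. RAD50 was at -0.29 (adjusted p = 0.054 by limma), NBN at -0.026 and MRE11 at -0.036, although 1 of the 5 probe sets of NBN was called lower on its own (-0.46, adjusted p = 0.0052 by limma).

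**Figure D3:**
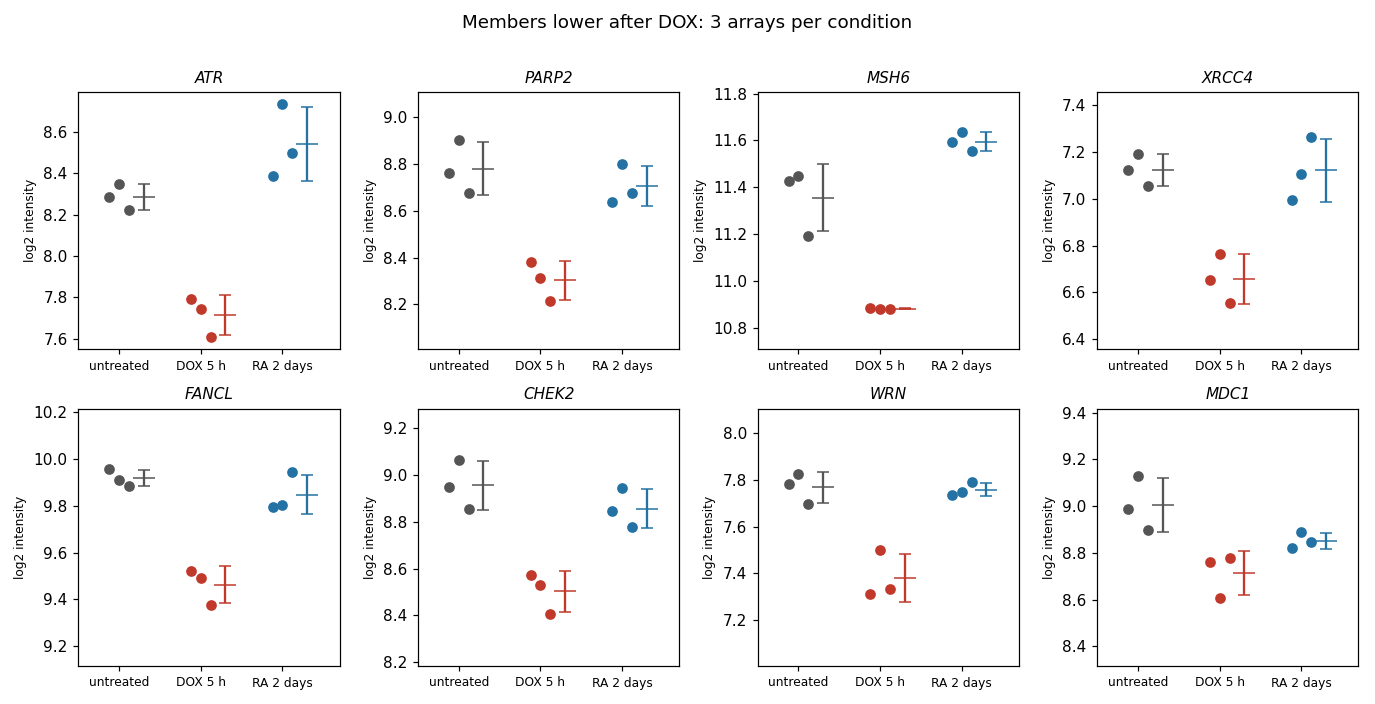
Log2 intensity (y axis) of the 8 genes that fell after DOX, 1 point per array and 3 arrays per condition, with the mean and SD beside the points; each panel has its own axis. The red DOX points lie below every grey untreated point in all 8 panels, and for ATR and MSH6 the blue RA points lie above the untreated ones.

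**Figure D4:**
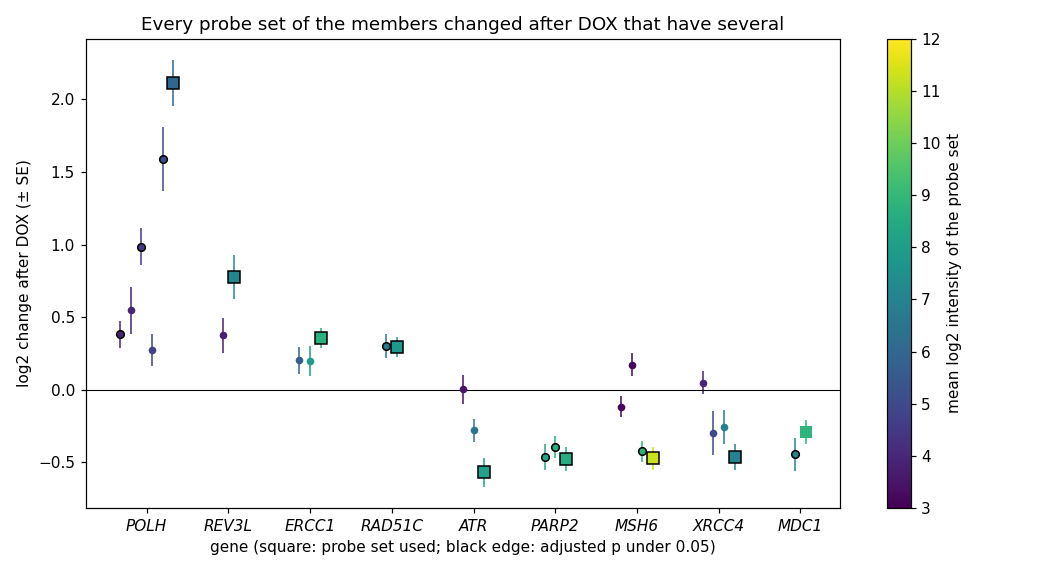
Log2 change after DOX (y axis, with SE) of every probe set of the 9 called genes that have several, ordered within a gene by mean level, which the colour shows. The square is the probe set used for the gene and a black edge marks an adjusted p under 0.05 over all probe sets, a larger family of tests in which the square of MDC1 is not called; the 6 probe sets of POLH all lie above 0 and the 3 of PARP2 all below.

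After 2 days of RA few repair genes were called. Of the 47 members 1 rose and 2 fell, 6.38% of them, where 6.47% of all genes were called, 3.16% as higher and 3.32% as lower, and where 10.4% of genes above the median level were called, and 7.14% of the members there. The median change of the members was -0.0021, against -0.0041 over all genes. TP53BP1, the break-binding protein that steers repair towards end joining, had the lowest change. It read 8.65, 8.69 and 8.62 untreated, 8.81, 8.39 and 8.64 after DOX and 8.06, 8.11 and 8.03 after RA. The RA arrays lay below all others, and TP53BP1 fell 1.504-fold (-0.59 ± 0.097, adjusted p = 0.0039 by limma), a change that was called in 1 of its 4 probe sets and was lost with their mean (-0.21, adjusted p = 0.20 by limma). After DOX it was at -0.039 (95% interval -0.25 to 0.18).

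DDB2 rose 1.30-fold after RA (0.37 ± 0.074, adjusted p = 0.011 by limma), less than after DOX, and was the 1 member called under both treatments. It lost the RA call without the first untreated array (0.34) or the first RA array (0.33), each with an adjusted p of 0.053 by limma. ERCC3, the XPB helicase of TFIIH, read 7.70, 7.56 and 7.65 untreated, 7.60, 7.40 and 7.59 after DOX and 7.40, 7.31 and 7.31 after RA. It fell 1.23-fold after RA (-0.30 ± 0.077, adjusted p = 0.046 by limma), and this call was lost in 8 of the 9 fits that left out 1 array, with changes from -0.34 to -0.26. POLH, at 0.56 ± 0.16 (adjusted p = 0.066 by limma), ATR, at 0.26 (adjusted p = 0.17), and MSH6, at 0.24 (adjusted p = 0.12), were not called, although their RA arrays all lay above their untreated arrays. For XPC the change was 0.095 (interval -0.16 to 0.35), for CHEK1 -0.090 (interval -0.25 to 0.072), for CHEK2 -0.10 (interval -0.28 to 0.079), for BRCA1 0.014 (interval -0.17 to 0.20) and for ATM 0.018 (interval -0.18 to 0.21). Over the 44 uncalled members the changes after RA ran from -0.25 to 0.56. Beside these values, 6 of the 8 p53 targets of the marker list rose and 1 fell after RA, and 0 of the 12 G2 and M phase genes were called (1 at an unadjusted p under 0.05 by limma). Of the 12 fibroblast and stromal genes 2 rose and 3 fell, with the collagen genes COL1A1 at 0.998 and COL6A3 at -0.73, and of the 14 S phase genes 1 rose and 1 fell. Of the 8 pluripotency markers 5 had positive and 3 negative changes, from -0.34 to 0.29. NANOG, the lowest, was the 1 called (adjusted p = 0.036 by limma). The part of these shifts in the RA results was not tested.

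The direct comparison of RA with DOX tests where the treated groups differ. These groups differ in agent and in time (2 days against 5 h), and the RA medium is one without added FGF. Agent, time and medium cannot be told apart here. The changes after DOX and after RA share the untreated arrays, and this comparison shares the treated arrays with both, so the 3 are not independent. Of the 47 members 9 were higher and 6 lower on the RA arrays, 31.9%, where 21.2% of all genes were called, 12.6% as higher and 8.62% as lower. Above the median level 34% of genes and 33.3% of members were called. There 21.1% of genes and 21.4% of members were higher, and 12.9% of genes and 11.9% of members lower. On the RA arrays the genes of nucleotide excision repair and translesion synthesis were lower in 5 cases and higher in 0 of 14 (0 also at an unadjusted p under 0.05 by limma), and those of the other 7 pathways higher in 9 and lower in 1 of 33. These counts hold for the probe set used per gene. POLK had another probe set, at a mean level of 4.79, that was higher on the RA arrays (0.39, adjusted p = 0.023 by limma). POLH was 2.93-fold lower on the RA arrays (-1.55 ± 0.16, adjusted p = 4.8e-05 by limma), DDB2 1.71-fold lower (-0.78 ± 0.074, adjusted p = 2.9e-05) and ERCC1 1.42-fold lower (-0.51 ± 0.064, adjusted p = 2.2e-04). REV3L (-0.61) and XPC (-0.54) were lower as well, and TP53BP1 (-0.55) was the exception outside these pathways. REV3L lost this call without x_at and s_at probe sets (-0.37, adjusted p = 0.059 by limma), and TP53BP1 with the mean of all probe sets (-0.22, adjusted p = 0.081).

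In the opposite direction ATR was 1.77-fold higher on the RA arrays than on the DOX arrays (0.83 ± 0.095, adjusted p = 1.1e-04 by limma) and MSH6 1.64-fold higher (0.71 ± 0.078, adjusted p = 7.9e-05). XRCC4 (0.46), PARP2 (0.40), FANCL (0.38), WRN (0.38) and CHEK2 (0.35), each lower after DOX, were also higher under RA. With the mean of all probe sets the differences were smaller for ATR (0.42), MSH6 (0.33), POLH (-0.76) and ERCC1 (-0.32) and kept their calls, and XRCC4 lost its call and sign without x_at and s_at probe sets (-0.044, adjusted p = 0.78 by limma). PARP1 and RAD50 were called in this comparison and in no other. PARP1 read 10.95, 10.95 and 10.82 untreated, 10.80, 10.81 and 10.72 after DOX and 11.11, 11.06 and 10.998 after RA, a difference of 0.28 ± 0.068 (adjusted p = 0.014 by limma) that was lost without the first RA array (0.25, adjusted p = 0.054). RAD50 read 8.41, 8.501 and 8.23 untreated, 7.999, 8.09 and 8.18 after DOX and 8.35, 8.55 and 8.47 after RA, a difference of 0.37 ± 0.090 (adjusted p = 0.013 by limma) that was lost with the mean of its probe sets (0.21, adjusted p = 0.17), without x_at and s_at probe sets (0.29, adjusted p = 0.082) and without the first DOX array (0.32, adjusted p = 0.050) or the second RA array (0.32, adjusted p = 0.060). RAD51C and MDC1, called after DOX, did not differ past the threshold between the treatments, at -0.17 (95% interval -0.32 to -0.022) and 0.14 (interval -0.038 to 0.31). In all, 29 of the 47 members were called in none of the 3 comparisons by the probe set used. Among these, LIG3 (0.53), CHEK1 (0.42), OGG1 (0.35) and POLK (0.39) had another probe set called higher on RA than on DOX arrays. The adjusted p-values of these probe sets by limma were 0.0038, 0.025, 0.022 and 0.023. On the RA arrays 10 of the 12 G2 and M phase genes, 5 of the 14 S phase genes and 5 of the 8 pluripotency markers were also higher than on the DOX arrays (1 S phase gene was lower), while 6 of the 12 fibroblast and stromal genes were lower (1 was higher) and all 8 p53 targets were lower. The part of these shifts in the differences between RA and DOX was not tested.

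**Figure D5:**
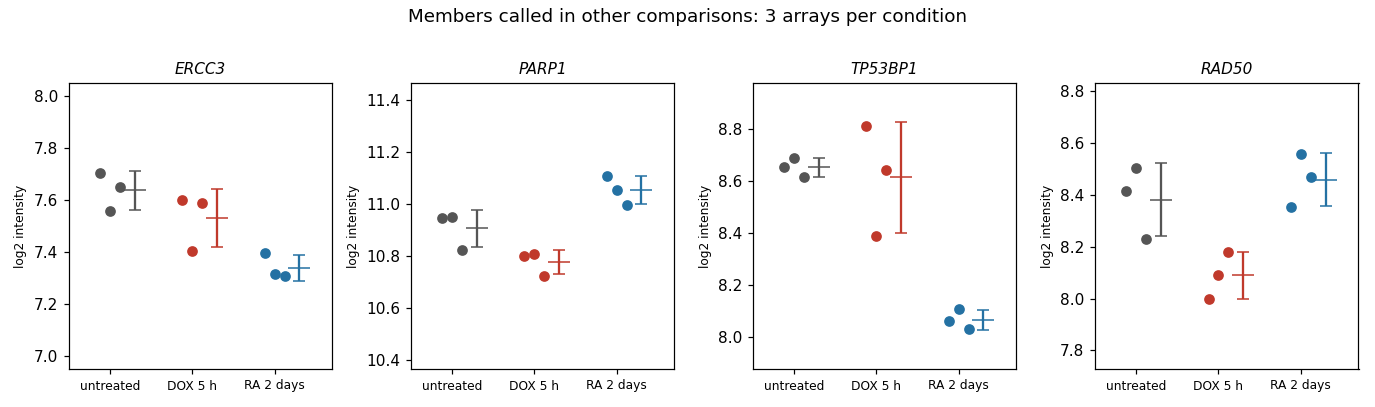
Log2 intensity (y axis) of the 4 genes called after RA or between RA and DOX but not after DOX, 1 point per array and 3 arrays per condition, with the mean and SD beside the points; each panel has its own axis. The blue RA points of TP53BP1 and ERCC3 lie below all grey untreated points, and those of PARP1 and RAD50 lie above all red DOX points.

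Other genes of the same pathways, 105 measured of 113 listed, were read the same way. After DOX 9 rose and 22 fell (29.5%), a share close to that of the members. Of all genes 15.3% were called, and of genes above the median level 24.6%. The falls made up 21.0% of these repair genes, 9.6% of all genes and 16.6% of genes above the median level. The 2 genes MAD2L2 and TOPBP1 are listed under 2 pathways each and are counted in both below. Checkpoint genes beside the kinases fell in 4 of 13 cases and rose in 1. RAD17, which loads the checkpoint clamp (-0.55), and ETAA1, an activator of ATR (-0.66), fell, and WEE1, the kinase that restrains mitotic entry, rose (0.83 ± 0.076, adjusted p = 3.5e-05 by limma). Break signalling genes fell in 6 of 10 cases, with ABRAXAS1 at -0.73, PAXIP1 at -0.53 and the ligase gene RNF8 at -0.44. All 10 changes were negative, where 51.2% of all genes and 64.1% of genes above the median level had negative changes. The additional Fanconi genes fell in 4 of 10 cases, among them FANCE (-0.50), FANCF (-0.41) and FANCG (-0.34).

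Translesion genes outside the membership moved both ways, with 2 rising and 3 falling of 8. PCNA, the sliding clamp on which bypass polymerases work, rose (0.35 ± 0.083, adjusted p = 0.016 by limma), while the fork remodelling gene HLTF (-0.74) and the bypass polymerase gene POLI (-0.50) fell. In nucleotide excision repair 2 rose and 2 fell of 15, with ERCC6, which acts in transcription-coupled repair, at 0.46, the TFIIH gene GTF2H1 at 0.25 and CDK7 at -0.29. Base excision genes rose in 1 and fell in 3 of 19 cases, with NEIL3 at -0.39, NTHL1 at -0.33 and APTX at 0.28. In homologous recombination 1 of 19 was called, the nuclease gene MUS81 at 0.31, and of the 5 end joining and 2 mismatch repair genes 0 were called (at an unadjusted p under 0.05 by limma, 0 and 2). Of 3 genes of direct reversal ALKBH2 fell (-0.40), and of 3 genes of nucleotide supply RRM2B, the p53-inducible ribonucleotide reductase subunit (0.62), and RRM2 (0.38) rose.

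After RA 1 of these 105 genes rose and 3 fell (3.81%), where 6.47% of all genes and 10.4% of genes above the median level were called. The riser, MAD2L2, the partner subunit of REV3L in polymerase zeta, was at 0.68 ± 0.072 (adjusted p = 1.8e-04 by limma), where after DOX it fell (-0.27). RECQL (-0.36), MGMT, the methyltransferase that removes alkyl groups from guanine (-0.40), and UBE2A, the conjugating enzyme of RAD18 (-0.28), fell.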

How the data were processed

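WA09 cells in 3 conditions were profiled on 9 Affymetrix arrays, 3 per condition. The deposited values are log2 intensities made by the authors with RMA in affy, per the submitters' processing notes, and their precision is limited by the number of arrays. Control probe sets and those annotated to several genes or to none were left out. The platform annotation, matched by Entrez number to RefSeq, gave 19775 genes, each represented by its probe set with the highest mean. All 9 arrays were fitted together with limma 3.58.1 in R 4.3.3, with no replicate block, and p-values were adjusted by Benjamini-Hochberg over all genes, an adjusted p under 0.05 being the call. The members and lists were chosen with earlier results of these data known. By rule, array values are given for members called after DOX or RA (up to 4 per pathway and comparison with the largest change) and for TP53BP1, ATM, ATR, CHEK1, CHEK2, BRCA1, XPC, DDB2 and POLH, and up to 3 called genes per pathway and comparison are named among the other repair genes. Array values of PARP1 and RAD50, called between the treatments, and single values of uncalled members were added after the values were seen. The fit was tested on simulated data. Set changes of 0.5 were recovered in 56.1% of cases for DOX, 65.2% for RA and 68.2% for RA against DOX. For set changes of 1 the shares were 97.0%, 95.5% and 98.5%. A change of about 0.5 or less can therefore go uncalled. Results were recomputed under 18 alternatives: 9 that left out an array and 9 other settings.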

Additional observations from a re-analysis of the deposited data

How the results depend on the processing

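Of 32 member changes called in the 3 comparisons, 20 kept their call in every one of the 18 alternatives that could be run for them, and 2 reversed: XRCC4 without x_at and s_at probe sets, at 0.048 after DOX and -0.044 between RA and DOX. POLH lies below the median level, so the setting with genes above that level could not be run for it. The called members PARP2, CHEK2, RAD51C and MDC1 have only x_at or s_at probe sets, so the setting without them could not be run for these genes. Without those probe sets 41 members remained measurable, with 3 called higher and 4 lower after DOX, 1 lower after RA and 5 higher between RA and DOX, and of the other repair genes 14 were lower after DOX and 1 after RA. After RA, the count of members higher was 3 with a trended robust variance, and that of members lower was 1 with the mean of all probe sets and 1 with further quantile normalization. The other repair genes higher after RA were 2 with only the 2 groups compared, and those lower were 7 among genes above the median level, 6 with a trended robust variance, 5 with array weights and 1 with only the 2 groups compared. Leaving out 1 array gave 6 to 7 members higher and 7 to 11 lower after DOX, 0 to 2 higher and 1 to 2 lower after RA, and 8 to 10 higher and 6 to 7 lower between RA and DOX. For the other repair genes the ranges were 6 to 9 higher and 13 to 26 lower after DOX, the 13 without the second untreated array, and 1 to 2 higher and 0 to 4 lower after RA. The causes were not tested. Arrays of the same replicate number had deviations from their group means that correlated at -0.103 to 0.199. Of the 9 arrays, 7 were closest to one of their own number. These values do not settle whether the numbers pair the arrays, and the main fit took no pairing. With the replicate block 6 members were higher and 7 lower after DOX, 1 and 2 after RA, and 9 and 6 between RA and DOX. Of the other repair genes 8 were higher and 20 lower after DOX, and 1 and 1 after RA.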

Other observations

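In 18 of the 47 measured repair genes (38.3%), 2 arrays held exactly the same value, as in 9833 of all 19775 genes (49.7%). This count was chosen after the values were seen.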
